A study of Mus musculus with 6 samples.

Results

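The HOX, Lhx and Nkx homeobox genes, the homeobox genes of the sine oculis family and the Pax and Sox genes encode DNA-binding proteins that pattern the embryo and specify organs. They were examined here in natural killer (NK) cells, in which most of them have no known role. Members were the open-chromatin peaks whose nearest gene carries one of these family names. They comprised 166 of the 51775 consensus peaks, and their nearest genes were 67 of 16526. RefSeq lists 108 mouse symbols of this pattern, and the 41 that were the nearest gene of no peak were not analysed here. Among these, Nkx2-2 held 2 peaks in its introns that were assigned to its antisense transcript Nkx2-2os. The Sox and Lhx families held the most peaks, 46 at 11 genes and 35 at 7 genes. The 4 HOX clusters held 45 peaks at 30 genes. Antisense transcripts that carry a family name were counted as genes: Sox5os3 with 9 peaks, Nkx2-2os with 2, and Hoxd3os1 and Six3os1 with 1 each. Peaks were assigned to genes by distance alone, and 17 member peaks lay inside another gene, among them 9 in Slc44a5 that were assigned to Lhx8.

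In most adult cells these genes are held silent by Polycomb group complexes, which bind CG-rich promoters and modify the surrounding histones. Where a family member is used in blood, its region is opened by Trithorax group proteins and lineage factors. The HOXA genes of the middle of the cluster act in blood stem and progenitor cells together with the cofactors Meis1 and Pbx, and they are switched down as the cells mature. Sox4 and Sox13 have roles in lymphocytes, Sox6 in red cells, and Nkx2-3 in the stroma of the developing spleen.

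The assay was ATAC-seq: a transposase cuts accessible DNA and tags it with sequencing adapters. NK cells were flow sorted from spleen as CD3-, CD5-, NK1.1+ and NKp46+ cells of mice on the C57BL6 background, and 50000 cells of each genotype were used. The 2 genotypes, wildtype and Rroid deficient, had 3 libraries each. Numbers 1, 2 and 3 name the wildtype libraries and 4, 5 and 6 the Rroid-deficient ones. Rroid is a long non-coding RNA whose locus lies near Id2, a gene needed by NK cells. The labels give neither the extent of the altered locus nor the animals behind each library, so the p-values rest on a spread between libraries that may be technical. Chromatin was taken from sorted cells in bulk, so fewer cells of a type and less signal per cell cannot be told apart.

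The libraries held 27572006 to 47939665 reads in peaks, with the lower values in Rroid-deficient libraries 4 and 6. At the Rroid locus, annotated as Gm17746, 13 of 41 peaks were under 10% of wildtype in the Rroid-deficient libraries, a set picked by its values, and their summed signal averaged 4904 normalized reads in wildtype and 53.3 in the other genotype. All 11 NK marker genes examined had an open start site, at 581 to 4004 normalized reads per kb. The summed signal near B cell markers was 1797 to 1843 in wildtype and 1545 to 1718 in Rroid-deficient libraries, and near spleen stroma markers it was 1485 to 1552 and 1525 to 1636.

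In the wildtype libraries the member genes were mostly lightly open, and openness is given below as normalized reads per kb of peak, a level comparable between peaks of different width. The median member peak had 126.7 normalized reads per kb, and the median of all peaks was 199.7. The least open member was the Hoxc4 start site, at 36.8, and the most open was an intergenic peak nearest to Lhx5, at 1693. The gap lay at the start sites. For the 42 member peaks within 1 kb of a start site, at 40 genes, the median was 135.8 against 942.8 for all 11847 start-site peaks. Of these 42, 17 were in the lowest decile of start-site peaks and 1, Sox12, was above their median. Away from start sites the difference was smaller, with medians of 184.3 and 199.5 between 1 and 10 kb and 98.8 and 138.5 beyond 10 kb.

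**Figure D1:**
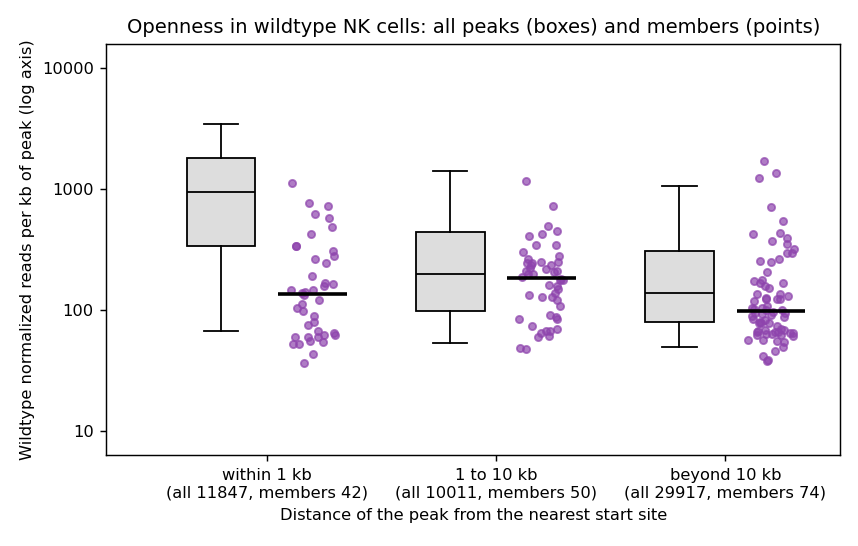
Openness in wildtype cells (y axis, mean normalized reads per kb of peak over 3 libraries, log axis) by distance of the peak from the nearest start site (x axis). Boxes hold the middle of all peaks with whiskers from the 5th to the 95th percentile, points are the member peaks and black bars their medians; at start sites the member median is 135.8 against 942.8 for all peaks.

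Promoter sequences are shown beside these levels because known Polycomb targets are rich in CG pairs. RefSeq promoter windows (build GRCm38.p6) were found for 47 of the 67 genes, 60 windows in all, and the 250 bases before the start were searched for the motif CG, which reads the same on both strands and cannot overlap itself. The median member window held 13 CG and the median of all 32851 windows held 6. At least 10 CG stood in 66.7% of the member windows and in 37.8% of all windows. The windows of the most open and the least open start-site peaks are shown, among genes with 1 RefSeq start, to let their CG content be compared. Capitals mark CG, and each runs 5′ to 3′ on the gene's strand. Sox12 (chr2:152398047-152398296, minus strand) and Hoxa3 (chr6:52213068-52213317, minus strand) were the most open, at 1125 and 762 normalized reads per kb.
Sox12: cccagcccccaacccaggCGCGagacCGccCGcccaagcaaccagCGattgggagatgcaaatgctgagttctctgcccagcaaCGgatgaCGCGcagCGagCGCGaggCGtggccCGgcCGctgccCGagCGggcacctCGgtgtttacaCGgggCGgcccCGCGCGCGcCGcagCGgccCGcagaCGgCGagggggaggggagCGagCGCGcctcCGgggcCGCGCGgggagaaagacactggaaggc
Hoxa3: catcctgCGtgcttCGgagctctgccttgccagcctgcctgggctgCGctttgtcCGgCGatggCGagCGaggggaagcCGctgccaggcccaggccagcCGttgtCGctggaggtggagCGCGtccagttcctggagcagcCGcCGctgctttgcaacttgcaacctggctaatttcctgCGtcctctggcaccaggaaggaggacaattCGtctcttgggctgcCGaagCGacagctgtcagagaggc
Hoxc4 (chr15:103034145-103034394, plus strand) and Nkx6-1 (chr5:101664712-101664961, minus strand) were the least open, at 36.8 and 43.3 normalized reads per kb.
Hoxc4: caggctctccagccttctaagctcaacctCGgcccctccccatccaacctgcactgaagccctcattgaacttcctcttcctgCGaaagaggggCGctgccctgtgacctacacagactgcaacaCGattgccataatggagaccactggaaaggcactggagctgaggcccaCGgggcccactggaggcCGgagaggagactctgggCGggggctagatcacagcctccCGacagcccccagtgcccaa
Nkx6-1: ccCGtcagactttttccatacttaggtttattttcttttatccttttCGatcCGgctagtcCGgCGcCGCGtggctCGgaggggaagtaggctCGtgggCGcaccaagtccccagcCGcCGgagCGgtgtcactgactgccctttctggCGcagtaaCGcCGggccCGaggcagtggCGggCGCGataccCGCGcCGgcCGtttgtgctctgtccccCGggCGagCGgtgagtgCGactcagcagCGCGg
The Sox12 window held 35 CG and the Nkx6-1 window 30, at openness values at opposite ends of the range. Hoxa3 held 18 and Hoxc4 held 8. Across the 21 genes with 1 RefSeq start and a start-site peak, CG count and log2 openness had a Pearson r of 0.10 and a Spearman rho of 0.15, a description over sites that share all 3 libraries.

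Only 5 member peaks exceeded 1000 normalized reads per kb in wildtype, and 4 of them were not start sites. The Lhx5 peak, 108966 bp upstream of this forebrain regulator (mm9 chr5:120771777-120774081, intergenic), had 3784, 4168 and 3758 normalized reads in wildtype, in library order. An intergenic Six2 peak lay 220711 bp upstream of that nephron progenitor gene, at 1362 per kb. The Lhx8 peak, at 1247 per kb, lay in an intron of Slc44a5, 147430 bp from the start of Lhx8, a gene of cholinergic neurons and oocytes. An intergenic peak 2159 bp upstream of Sox5os3, an antisense transcript of Sox5, stood at 1173. Sox12, at 1125, was the sole start site above 1000. It encodes a SoxC factor, and its promoter peak (mm9 chr2:152222744-152225038) had 2716, 2676 and 2357 normalized reads in the wildtype libraries.

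Several start sites, some of genes with roles in blood, were more open than the median member start site, at 135.8 normalized reads per kb. They were below the median of all start-site peaks, 942.8. Sox4, a SoxC factor needed for B cell development, had 1366 ± 278 normalized reads (SD, n = 3) at its exon, or 573 per kb. Hoxb4, which expands blood stem cells when overexpressed, stood at 619 per kb, Hoxa4 at 729 and Six5 at 485. Hoxa3, needed for thymus and parathyroid formation, stood at 762, from a peak in the overlapping transcript Hoxaas3. By contrast Lhx2 had 62.4 per kb, Lhx6 54.0, Hoxa5 59.6 and Nkx2-3 105 at the start site. In each family the least open start site was below 80 normalized reads per kb, including Hoxb7 at 79.3, Hoxd11 at 52.0, Pax3 at 59.5, Six4 at 67.5 and Sox18 at 52.0. Among genes with a known role in blood or spleen, Pax5, the B lineage regulator, was not analysed here, Sox13 had 1 peak, in its intron 6085 bp from the start, and Nkx2-5 had 1 peak, 8626 bp upstream of its start.

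Rroid-deficient and wildtype libraries were compared with limma on log2 of the normalized reads plus 1, over all peaks, with a call at a Benjamini-Hochberg adjusted p under 0.05. Of the 166 member peaks, 28 were called higher in Rroid-deficient cells, or 16.9%, against 13.8% of all peaks. Another 19 were called lower, or 11.4%, against 12.1% of all peaks, and 119 had no call. Both shares were near the background of all peaks. The median log2 fold change was 0.08 over members and -0.01 over all peaks. Groups did not overlap at 61 member peaks, or 36.7%, against 40.1% of all peaks. Leaving out single libraries moved these counts. Without library 4, 15 peaks were called higher, or 9.04%, against 10.6% of all peaks. Without wildtype library 2, wildtype library 3 and Rroid-deficient library 6, in turn, 11, 11 and 10 were called lower. These were 6.63%, 6.63% and 6.02% of members, against 7.8%, 8.9% and 8.06% of all peaks. Without both libraries 4 and 6, 9 were called higher and 11 lower. In that fit library 5 is the sole Rroid-deficient sample, the spread comes from the wildtype libraries alone, and library 5 is assumed to vary as they do.

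Rises and falls lay at different starting levels. The 28 peaks that rose had a median of 67.7 normalized reads per kb in wildtype, and the 19 that fell had 320. Of the 49 members in the lowest quartile of all peaks by level, 9 rose and 0 fell by limma, with 2 lower at an unadjusted p under 0.05. Of the 13 in the highest quartile 0 rose and 3 fell by limma, with 0 higher at an unadjusted p under 0.05. edgeR and DESeq2 also called 0 in both places. From the lowest to the highest quartile, 18.4%, 17.0%, 19.6% and 0% of members rose and 0%, 11.3%, 19.6% and 23.1% fell. Over all peaks, 11.9%, 16.7%, 18.5% and 7.98% rose and 3.53%, 9.42%, 18.4% and 17.0% fell, in the same order. The lowest quartile of all peaks held 1536 rises and 457 falls and the highest 1033 and 2201. Fold change and wildtype level share the wildtype libraries. The median deviation of the members from the mean of all libraries was 0.17 and 0.05 log2 units in libraries 4 and 6 and -0.05 in library 5. In the lowest quartile of all peaks it was 0.26, 0.15 and -0.14. Library 5, the deepest of the Rroid-deficient libraries, was above every wildtype library at 50 of the 166 members and below every one at 47. Over all 51775 peaks these counts were 16798 and 19071.

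**Figure D2:**
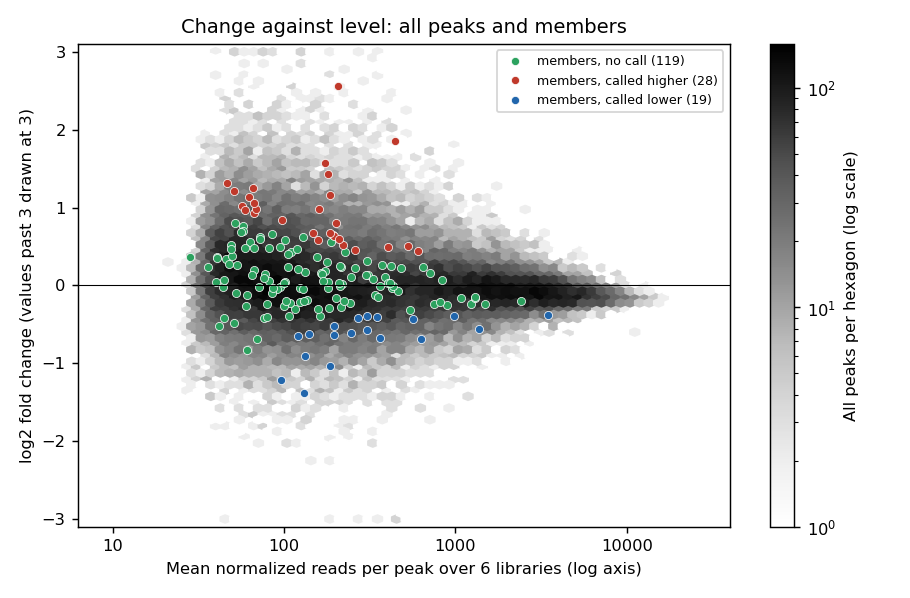
Change between genotypes (y axis, log2 fold change, Rroid deficient over wildtype) against the mean normalized reads over 6 libraries (x axis, log axis). Grey hexagons count all peaks and coloured points are the members, 28 called higher, 19 called lower and 119 without a call. By quartile of all peaks on the x axis, lowest to highest, member rises number 9, 9, 10 and 0 and falls 0, 6, 10 and 3.

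At the start sites of these genes rises outnumbered falls. Of 42 start-site peaks 11 rose, or 26.2%, against 10.4% of all start-site peaks, and 2 fell, or 4.76%, against 8.73%. Their median log2 fold change was 0.36, and that of all start-site peaks was -0.03. Rises were also common at lightly open start sites of other genes: over all start-site peaks 23.1% rose in the lowest level quartile, 29.6% in the next, 18.8% in the third and 4.48% in the highest. The members that rose in those quartiles were 2 of 6, 4 of 14, 5 of 17 and 0 of 5. Without library 4, 5 of the 42 rose, against 7.84% of all start-site peaks. Leaving out wildtype library 2 left 7 rises, against 7.55% of all start-site peaks. The members' median log2 fold change at start sites was 0.215 without library 4, and over the other single libraries left out it was 0.252 to 0.408. With library 5 as the sole Rroid-deficient sample and the spread taken from wildtype alone, 4 rose, against 5.2%, and the median was 0.112.

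**Figure D3:**
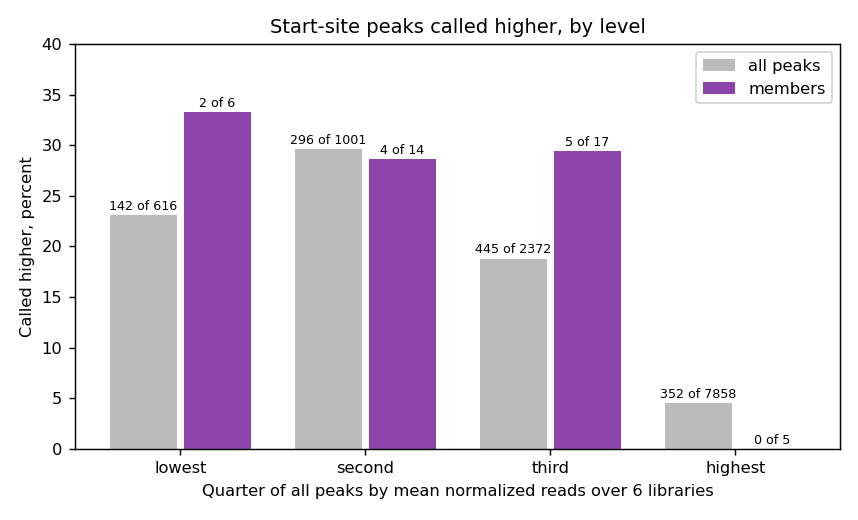
Share of start-site peaks called higher in Rroid-deficient cells (y axis, percent) in each quartile of all peaks by mean normalized reads (x axis, lowest to highest). Grey bars are all start-site peaks and purple bars the members, with counts above; in the lowest quartile these are 142 of 616 and 2 of 6, in the highest 352 of 7858 and 0 of 5.

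When the signal of all peaks of a gene was summed, 13 of the 67 genes were higher, against 11% of all genes, and 6 were lower, against 9.69%. The higher genes included Hoxa5, Hoxc4, Hoxd8, Lhx2, Lhx4, Lhx6, Nkx2-6, Nkx6-1, Pax7, Sox17 and Sox30. The lower genes were Hoxa7, Hoxa9, Lhx5, Lhx8, Lhx9 and Sox5os3. These counts moved when single libraries were left out. With wildtype library 2 or 3 or Rroid-deficient library 4 or 6 left out, the higher genes numbered 6. The lower genes numbered 2, 2, 2 and 1 in the same order. Shares over all genes were not computed in those fits. Over all peaks 10.1 to 10.6% were higher and 7.8 to 9.38% lower in them, against 13.8% and 12.1% with every library. By peak, 17 genes had only rises, 10 had only falls and Lhx8 had both.

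In the HOXA cluster the direction of the calls was mixed, with 4 of 18 peaks higher and 4 lower. Each count was 22.2%, against 13.8% higher and 12.1% lower over all peaks, and 18 peaks are too few to set these shares apart. Hoxa5, an axial skeleton and lung gene, had a start-site peak with 41.9, 54.6 and 40.05 normalized reads in wildtype and 70.3, 108.5 and 85.8 in Rroid-deficient libraries. It rose 1.94-fold (log2 fold change 0.93 ± 0.26 SE, limma adjusted p = 0.0149), with no overlap. Without wildtype library 3 or Rroid-deficient library 5 or 6 its adjusted p was 0.0528, 0.0532 and 0.0508.

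Hoxa7, Hoxa9 and Hoxa10, genes of blood progenitors, each had a peak that fell, as did Hoxa11. The Hoxa9 exon peak (mm9 chr6:52175568-52176373) had 175, 152 and 180 normalized reads in wildtype and 91.5, 126 and 114 in Rroid-deficient libraries, again without overlap. It fell 1.53-fold (log2 fold change -0.62 ± 0.19 SE, limma adjusted p = 0.0229), and the adjusted p was 0.077, 0.0982 and 0.0551 without libraries 3, 4 and 6. The Hoxa7 5' UTR peak went from 396 ± 15.1 to 300 ± 28.9 (SD, n = 3 each, log2 fold change -0.40, limma adjusted p = 0.034), and that call was lost without library 2, 3, 4 or 6, at adjusted p of 0.0853 to 0.122. Intergenic signal 7480 bp upstream of the limb and kidney gene Hoxa11 went from 365 ± 75.8 to 241 ± 20.8 (limma adjusted p = 0.0152), a call lost without wildtype library 2 or 3. Hoxa10 had 1 exon peak, 695 bp from its start, that fell from 310 ± 12.5 to 233 ± 14.7 (limma adjusted p = 0.0374, lost without any of libraries 1, 2, 3, 4 or 6), and a second peak within 1 kb of its start, in the 5' UTR, at 262 ± 40.4 and 222 ± 5.84 with no call. The open Hoxa3 peak had 1617 ± 124 in wildtype and 1365 ± 77.6 in Rroid-deficient cells (limma adjusted p = 0.0704), and the Hoxa4 promoter 1137 ± 128 and 1016 ± 71.7 (limma adjusted p = 0.304). The 4 Hoxa13 peaks had log2 fold changes between -0.04 and 0.13.

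The HOXB, HOXC and HOXD clusters also hold too few peaks for their counts of calls to be set apart from the 13.8% higher and 12.1% lower of all peaks. None of the 11 HOXB peaks was called by limma, edgeR or DESeq2, and 2 were higher and 0 lower at an unadjusted limma p under 0.05, with log2 fold changes of -0.29 to 0.62. The Hoxb4 peak had 748, 680 and 586 normalized reads in wildtype and 629, 765 and 858 in Rroid-deficient libraries, which overlap. Hoxb6 stood at 100 ± 26.3 and 101 ± 3.01 at its start site. A peak 2320 bp upstream of Mir10a, a microRNA gene inside the HOXB cluster and no member, went from 381 ± 56.2 to 221 ± 41.2 (limma adjusted p = 0.00184). In HOXC, the Hoxc4 peak shown above as the least open went from 57.9, 30.2 and 52.7 to 109, 92.3 and 72.5, a rise of 1.94-fold (limma adjusted p = 0.0182). That call was lost without wildtype library 2 (adjusted p = 0.105) and without library 4 (adjusted p = 0.0761). The Hoxc9 promoter fell from 651 ± 55.0 to 481 ± 24.1 (limma adjusted p = 0.0113), a call lost without library 2 or 6. In HOXD, Hoxd8 rose from 151 ± 30.2 to 236 ± 30.5 at its promoter (limma adjusted p = 0.0149), lost without library 3 or 4, and the other 8 peaks had no call.

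**Figure D4:**
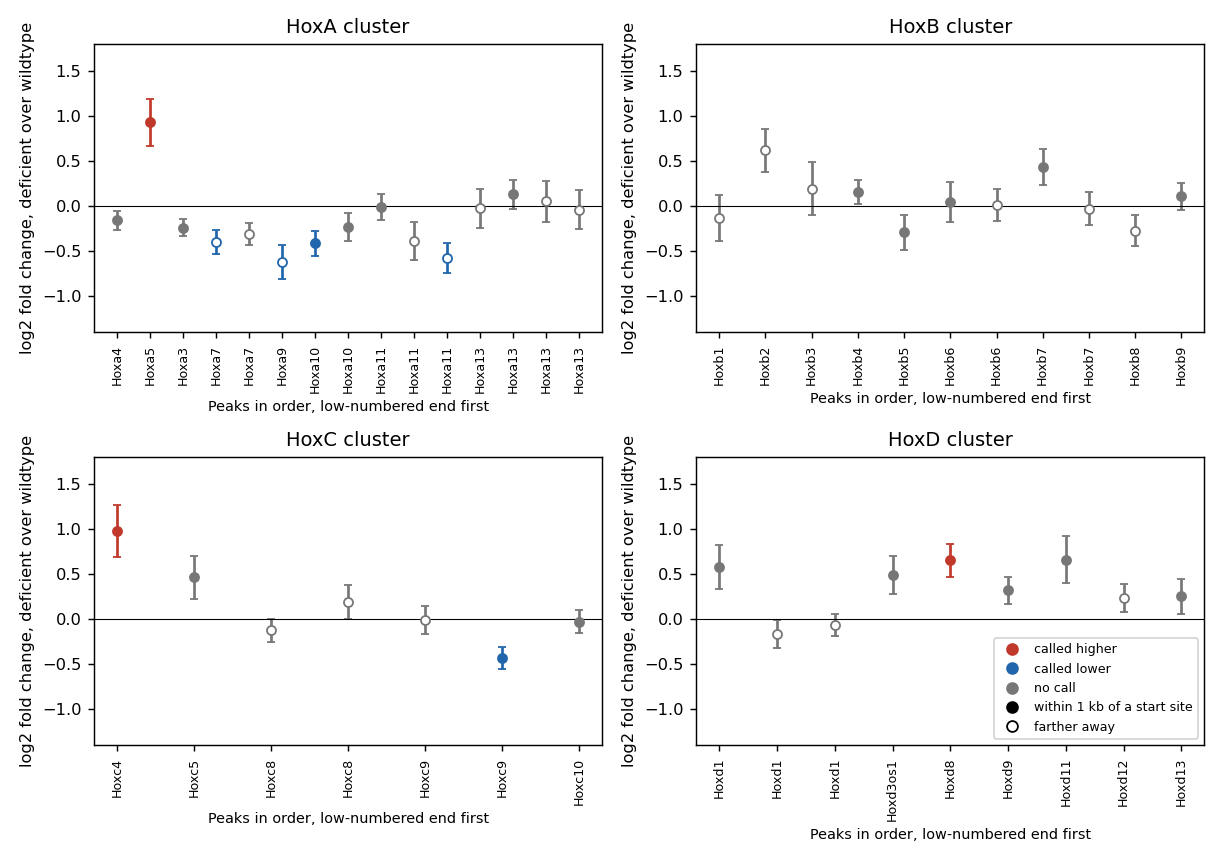
Log2 fold change of the peaks reported here in the 4 HOX clusters (y axis, Rroid deficient over wildtype, bars are 1 SE), in genomic order from the low-numbered end (x axis). Red points were called higher, blue lower and grey had no call; filled points lie within 1 kb of a start site, and the rises at Hoxa5, Hoxc4 and Hoxd8, at 0.93, 0.98 and 0.65, stand beside falls at Hoxa7, Hoxa9, Hoxa10, Hoxa11 and Hoxc9.

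Of the 35 Lhx peaks, at 7 genes, 8 were called higher, or 22.9%, against 13.8% of all peaks. Another 9 were called lower, or 25.7%, against 12.1% of all peaks. Lhx2, which directs forebrain and eye development, had the most rises of any member gene, at 5 of its 7 peaks. Its promoter (mm9 chr2:38206218-38207602) had 104, 83.2 and 72.3 normalized reads in wildtype and 321, 258 and 204 in Rroid-deficient libraries, with the lowest Rroid-deficient value above the highest wildtype one. It rose 3.02-fold (log2 fold change 1.57 ± 0.21 SE, limma adjusted p = 2.58e-05). The exon peak 17654 bp downstream rose 2.44-fold (limma adjusted p = 0.00298), and those at 31952 and 11697 bp upstream and 27301 bp downstream had log2 fold changes of 1.02, 0.58 and 1.22. Each of these last 3 calls was lost without at least 1 single library. Summed over its 7 peaks, Lhx2 went from 485 ± 46.0 to 904 ± 111 (SD, n = 3 each).

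Lhx5 fell at 2 of 5 peaks. An intergenic Lhx5 peak 9615 bp upstream (mm9 chr5:120871905-120872655) had 183, 194 and 189 normalized reads in wildtype and 76.9, 75.2 and 62.9 in Rroid-deficient libraries. The 6 values formed tight groups far apart, a fall of 2.63-fold (log2 fold change -1.39 ± 0.19 SE, limma adjusted p = 4.5e-05). At the most open member peak, also nearest to Lhx5, the values 3784, 4168 and 3758 went to 2818, 3522 and 2742 (log2 fold change -0.37, limma adjusted p = 0.0082). Library 5 lay closest to the wildtype group, and without library 6 the adjusted p was 0.0728.

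Lhx9, a gonad gene, fell at 3 of 8 peaks. The call 4033 bp from its start was lost without library 2, 3 or 5, and the one 1067 bp upstream without library 2, 3, 4, 5 or 6 and in edgeR (adjusted p = 0.0508). The third, 56254 bp from the start, went from 172 ± 10.2 to 91.8 ± 16.1 (log2 fold change -0.91, limma adjusted p = 0.00237). Its promoter peak had 237 ± 38.2 and 209 ± 45.8 and no call. Of the 10 Lhx8 peaks, 4 fell and 1 rose, all 5 in introns of Slc44a5. Of the 4 falls, the call at 152452 bp was lost without library 2, 3, 4 or 6, that at 147430 bp without library 6, and that at 141519 bp without library 1, 2, 3, 5 or 6. The other was from 445 ± 31.7 to 278 ± 20.5, at 104161 bp from the Lhx8 start (limma adjusted p = 0.00106). The rise lay at 154557 bp, from 50.8, 28.6 and 38.1 to 87.5, 71.4 and 97.9 (limma adjusted p = 0.00649). Lhx4, a pituitary gene, rose 1.57-fold at its promoter (limma adjusted p = 0.0249), a call lost without library 2 or 4. Lhx6, of cortical interneurons, rose at an exon peak from 113 ± 12.7 to 180 ± 22.2 (limma adjusted p = 0.0133, lost without library 3), while its start-site peak, at 50.8, 52.1 and 61.5 and then 141, 57.1 and 70.1, had no call.

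Pax peaks were few and lightly open, and of the 7 limma called 3 higher and 0 lower, against 13.8% and 12.1% of all peaks, too few to set apart from those shares. There were 0 lower at an unadjusted p under 0.05 and 0 lower by edgeR and DESeq2. Pax7, which marks muscle stem cells, had 34.7, 24.4 and 20.5 normalized reads in wildtype and 54.4, 72.3 and 72.5 in Rroid-deficient libraries at an intergenic peak 25849 bp upstream. The groups did not overlap, and the rise was 2.50-fold (log2 fold change 1.31 ± 0.31 SE, limma adjusted p = 0.00502). Its other peak rose from 69.0 ± 8.82 to 125 ± 29.4 (limma adjusted p = 0.0125), a call lost without library 2 or 4. Pax6, the eye gene, rose at its promoter from 166 ± 20.6 to 256 ± 62.9 (limma adjusted p = 0.0292). That rise was lost without library 2, 4 or 6, at adjusted p of 0.119, 0.138 and 0.124. Pax3, of the neural crest, went from 54.6 ± 8.74 to 78.5 ± 26.5, with no call.

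The largest Sox changes were at peaks far from start sites. In Sox6, which silences embryonic globin genes in red cells, both called peaks were intronic and rose. The one 203786 bp from the start (mm9 chr7:122740913-122741762) had 135, 85.7 and 125 normalized reads in wildtype and 264, 234 and 266 in Rroid-deficient libraries. It rose 2.21-fold (log2 fold change 1.16 ± 0.19 SE, limma adjusted p = 0.000235), and the peak at 67184 bp rose 1.74-fold (limma adjusted p = 0.00648). Near the Sox6 start, 1348 bp upstream, the level was 320 ± 19.2 and 339 ± 16.4, with no call.

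Sox5, a SoxD factor like Sox6, fell at an intronic and an intergenic peak. The intronic one, 221712 bp from the start (mm9 chr6:143935955-143936797), had 269, 219 and 262 normalized reads in wildtype and 133, 106 and 126 in Rroid-deficient libraries. All Rroid-deficient values were below all wildtype values, a fall of 2.06-fold (log2 fold change -1.04 ± 0.17 SE, limma adjusted p = 0.000267). Its antisense transcript Sox5os3 lost signal at 2 intergenic peaks, from 779 ± 43.5 to 481 ± 27.0 (limma adjusted p = 0.000207) and from 1628 ± 164 to 1104 ± 30.9 (limma adjusted p = 0.000473).

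The remaining Sox start sites showed small rises or no call. Sox30, a gene of male germ cells, rose from 142 ± 9.02 to 228 ± 29.1 at its exon near the start (limma adjusted p = 0.0069), and the endoderm gene Sox17 from 516 ± 71.7 to 698 ± 57.1 at its promoter (limma adjusted p = 0.0154). The Sox17 call was lost without library 1 or 4, at adjusted p of 0.0601 and 0.06. The open Sox12 promoter had 2583 ± 197 and 2240 ± 133 (limma adjusted p = 0.102) and the Sox4 exon 1366 ± 278 and 1224 ± 106 (limma adjusted p = 0.432). Sox13, a gene of gamma-delta T cells, stood at 133 ± 10.1 and 116 ± 22.5 with no call. Sox18, of vessel endothelium, had 48.3 ± 9.46 and 70.2 ± 25.9 at its start site, with no call.

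Six2 had 1 called peak, far from its start site. An intergenic peak 213064 bp upstream of Six2 had 183, 113 and 111 normalized reads in wildtype and 65.0, 44.7 and 61.7 in Rroid-deficient libraries. The groups were apart, and the fall was 2.38-fold (log2 fold change -1.21 ± 0.25 SE, limma adjusted p = 0.00173). The most open Six2 peak nearby had 1343 ± 300 and 1123 ± 95.3, with no call. Six5 had 1366 ± 125 and 1220 ± 107 and Six4 154 ± 49.7 and 223 ± 54.7, and neither was called.

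The Nkx genes had 4 rises and 0 falls among 20 peaks by limma, against 13.8% and 12.1% of all peaks, and 4 of 20 is near the first share. There was 1 lower at an unadjusted p under 0.05 and 0 lower by edgeR and DESeq2. Nkx2-6, a pharyngeal and heart gene, rose from 52.5, 43.7 and 34.2 to 83.5, 92.3 and 95.5 at a peak 35725 bp upstream (limma adjusted p = 0.00555). Nkx2-3, the spleen stroma gene, rose at 2 of 5 peaks, and neither call held without library 4 or without library 6. The intergenic one 11809 bp from its start went from 39.7 ± 5.07 to 79.1 ± 13.5 (limma adjusted p = 0.0125), with an adjusted p of 0.0577 and 0.0543 without those libraries. Its start-site peak had 89.3 ± 11.8 and 121 ± 28.7, with no call. Nkx6-1, of pancreatic beta cells, had 173, 77.3 and 83.0 in wildtype and 269, 167 and 195 in Rroid-deficient libraries at its start site. Wildtype library 1 overlapped the other group, and the call (limma adjusted p = 0.0108) was lost without library 2, 3 or 4, at adjusted p of 0.0538, 0.0519 and 0.0531. Nkx2-5 had 68.4 ± 16.7 and 94.3 ± 14.1, with no call.

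**Figure D5:**
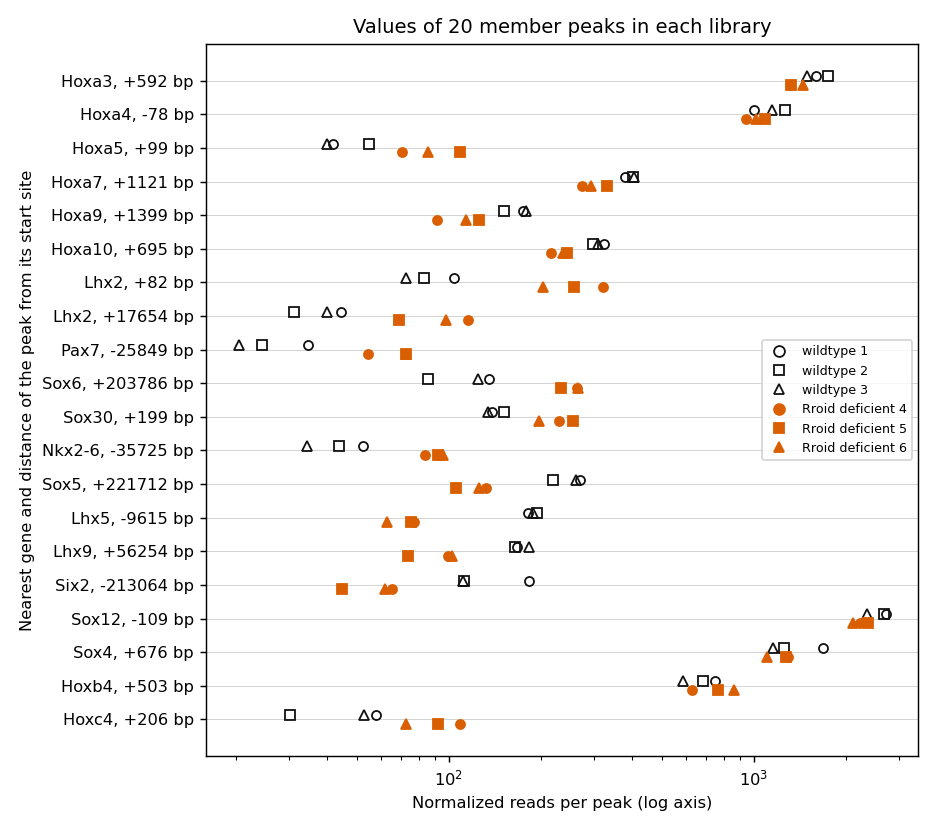
Normalized reads per peak (x axis, log axis) in each of the 6 libraries for 20 member peaks (y axis, nearest gene and distance from its start). Open black symbols are wildtype and filled orange symbols Rroid-deficient libraries, 1 symbol shape per library; the Lhx2 promoter lies at 72.3 to 104 in wildtype and 204 to 321 in Rroid-deficient libraries, while Lhx5 is reversed at 183 to 194 and 62.9 to 76.9.

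Genes that act with the members were examined in the same comparison. Of 31 peaks at 9 HOX cofactor genes, 5 rose, or 16.1%, and 6 fell, or 19.4%, against 13.8% and 12.1% of all peaks. The median log2 fold change of the cofactor peaks was 0.13. The Meis1 promoter fell from 2191 ± 71.3 to 1751 ± 155 (limma adjusted p = 0.0138), while 3 Pbx3 peaks far from its start rose. Of 96 peaks at Polycomb and Trithorax genes, 17 rose, or 17.7%, and 10 fell, or 10.4%, near the shares of all peaks. The Cbx2 start site rose from 413 ± 118 to 624 ± 172 (limma adjusted p = 0.0361), whereas 2 Cbx7 peaks fell, both genes encoding Polycomb subunits. Other developmental homeobox, T-box, forkhead and GATA genes outside the member families had 135 peaks. Of these 36 rose, or 26.7%, and 9 fell, or 6.67%, against 13.8% and 12.1% of all peaks. Their start-site openness, at a median of 111 normalized reads per kb, stood beside 135.8 for the members.

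Peaks near markers of NK cells and of other cells were also counted, beside 13.8% higher and 12.1% lower over all peaks. Of 11 peaks within 10 kb of 8 progenitor genes 4 rose and 1 fell, with a summed signal of 6530 to 6908 in wildtype and 8262 to 9494 in Rroid-deficient libraries. The Kit start site went from 600 ± 22.6 to 1909 ± 164 (limma adjusted p = 9.06e-09) and the Flt3 start site from 260 ± 90.1 to 605 ± 92.9 (limma adjusted p = 0.000127). The 1 fall was at the Meis1 promoter described above, since Meis1 is also in the progenitor list (log2 fold change -0.327). Of 11 T cell marker peaks at 6 of 10 genes 4 rose and 1 fell, with sums of 8306 to 9655 and 8664 to 9631. Of 33 NK marker peaks at 11 genes 2 rose and 16 fell, with sums of 61040 to 68381 and 46077 to 54687. The rises were at 2 genes and the falls at 8. The 11 genes include Id2, near which the Rroid locus lies. Of 8 myeloid marker peaks at 5 of 8 genes 2 fell, with sums of 2206 to 2620 and 1898 to 1967. Of 9 B cell marker peaks at 6 of 10 genes 1 fell, and of 12 stroma marker peaks at 6 of 10 genes 1 rose. No consensus peak of any gene was at 0 in any library, so signal above 0 at a marker does not tell which cells were present. Markers without a peak were not analysed here. The part of other cells in the changes at the member genes was not tested.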

How the data were processed

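The deposited table gave, per the file headers, 1 normalized signal value per consensus peak and library, with the nearest gene, its distance and a genomic class. Per the submitters' processing notes, on build mm9, BWA, MACS2 2.1.0, DiffBind and HOMER were used, with Trimmomatic 0.32, bcl2fastq 2.16.0 and R 3.1.1. For their settings, for duplicate removal and for any shift of reads to the cut site, nothing is given in the sources used.

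Each signal value the authors deposited is a whole read count over a library-wide factor: within 0.01, 100% came out whole by the smallest step between values. The median peak held 151 to 224 reads and the median member peak 121 to 161.5, where counting error alone is 7.87 to 9.09%. Columns of Rroid-deficient libraries end in 4, 5 and 6 and match no sample title, so libraries were not paired.

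The main test was limma 3.58.1 in R 4.3.3, with a trended prior variance, fitted to log2(signal + 1), a pseudocount of 1, over all 51775 peaks, with no filter on low values, and on signal summed over the peaks of each of 16526 nearest genes. Fold changes on this scale understate changes of low peaks. Alternatives were edgeR 4.0.16 and DESeq2 1.42.0 on the recovered reads, other pseudocounts, scalings, a filter, distance limits, a stricter threshold and leaving out libraries. The script was tested on simulated data. Promoter windows came from RefSeq, GRCm38.p6, and no coordinates were converted between builds.

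Members and lists were chosen with earlier results of these data known. Peaks named were the largest called rises and falls without overlap, the 10 most open, 1 peak of the gene with the most peaks and the least open start site per family, genes with roles in blood or spleen, and, in each direction, genes leading in called peaks. Named after their values were seen were the Hoxa10 exon, Hoxc9, Hoxd8, Lhx4 and Sox30 peaks, the other called peaks of Lhx2, Lhx6, Lhx8, Pax7 and Sox6, the uncalled Lhx9 promoter, the Mir10a peak, and the genes of the cofactor, Polycomb and marker lists. Some genes that the rule or the lists name are counted but not reported here by name.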

Additional observations from a re-analysis of the deposited data

How the results depend on the processing

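No called member peak was called in the opposite direction under any of the 16 alternatives, and 8 of the 28 rises and 8 of the 19 falls kept their call in all of them. The rises included the Lhx2 promoter, the Pax7 peak 25849 bp upstream, Sox30 and both Sox6 peaks. The falls were at Lhx5 (9615 bp upstream), Lhx8 (104161 bp), Lhx9 (56254 bp), Six2 (213064 bp upstream) and 2 peaks each of Sox5 and Sox5os3. edgeR's quasi-likelihood test called all 28 rises and 18 of the 19 falls. One alternative left library 5 as the sole Rroid-deficient sample, with the spread taken from wildtype alone and library 5 assumed to vary likewise. Without Rroid-deficient libraries 4 and 6 in this way, 9 member peaks rose and 11 fell, the median log2 fold change was -0.021, and 4 genes were higher and 1 lower by summed signal. In that setting 7.2% of all peaks rose and 7.06% fell. Leaving out 1 library gave 15 to 35 rises, 10 to 18 falls, medians of 0.06 to 0.12, 6 to 15 genes higher and 1 to 7 lower, and a median openness of 123.5 to 127.1 normalized reads per kb. Over all peaks 10.1 to 14.5% were higher and 7.8 to 12.2% lower in those fits. At an adjusted p under 0.01, 12 rose and 10 fell, or 7.23% and 6.02%, against 8.43% and 6.31% of all peaks. Peaks within 100 kb of the start site held 11 falls, and those within 10 kb held 13 rises and 9 falls. Shares over all peaks were not computed at these limits. Within 1 kb 26.2% of members rose and 4.76% fell, against 10.4% and 8.73% of all such peaks. Between 1 and 10 kb these were 4.0% and 14.0%, against 14.8% and 11.9%. Beyond 10 kb they were 20.3% and 13.5%, against 14.7% and 13.5%. Summed signal gave 3 lower genes when scaled to total reads in peaks and 5 higher genes after loess normalization, and the cause was not tested. Shares over all genes were not computed there. Over all peaks 9.55% were lower with the first scaling and 14.9% higher with the second. The median member ranked at 36.3% of all peaks by reads per kb and at 41.8% by reads per peak. No paired analysis was possible because the Rroid-deficient columns carry numbers that match no sample title, so the alternative with a replicate block was not run. Depth limits the low peaks most, where 1 library held as few as 18 reads.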
